A study of Mus musculus with 24 samples.

Results

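The genes described here were expressed at a low level in untreated mouse embryonic stem cells (ESCs) and rose after OHT treatment by at least as much when PRC1 had lost its catalytic activity as when PRC1 itself had been removed. They were picked from the measured values. For each line, the mean of log2(normalised read count + 1) in untreated cells was subtracted from that in OHT-treated cells. A gene was kept when this log2 change was at least 1.5 in PRC1CPM cells and at least 0.2 larger than in PRC1CKO cells. Its mean normalised read count also had to lie from 10 to under 1000 in both untreated groups and to reach 50 in both OHT-treated groups. Only protein-coding RefSeq transcripts were used, with 1 transcript per gene name, and several large gene families (*Hox*, *Pax*, *Sox*, *Wnt*, *Fgf*, *Bmp*, *Kcn*, *Cdh*, *Pcdh* and *Col*) were left out. Of the 20633 transcripts in the table, 17064 gene names remained after the choice by name, 7019 lay within the level limits and 525 of those reached the change of 1.5 in PRC1CPM cells. The 76 members are the ones among these 525 that also met the margin. Because the choice used the OHT effects and their difference, the values of both are given below as a description, and calls counted from them are not a test of the members.

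The data are 12 calibrated RNA-seq (cRNA-seq) libraries of total RNA depleted of ribosomal RNA, 3 from each of 4 conditions. PRC1CKO cells (E14 ESCs, clone B9) carry Ring1a-/-; Ring1bfl/fl; Rosa26::ERT2-Cre, so that they lack RING1A throughout and lose the first coding exon of *Ring1b* when 4-hydroxytamoxifen (OHT) activates Cre. PRC1CPM cells (E14 ESCs, clone 41) carry Ring1aI50A/D53K, the cassette Ring1b(WT->I53A/D56K)fl/fl and, like the other line, Rosa26::ERT2-Cre, so that RING1A is catalytically inactive throughout and OHT exchanges wild-type RING1B for the I53A/D56K mutant. Each line was taken untreated and after 72 h in 800 nM OHT. The untreated lines therefore differ in *Ring1a* and in their *Ring1b* cassette as well as in clone, each genotype is 1 clone, and genotype and clone cannot be told apart. *Drosophila* SG4 cells were added to calibrate expression to cell number. The shallowest library had 14668159 reads on genes and the deepest 27016156.

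PRC1, a Polycomb repressive complex, is built around RING1A or RING1B, an E3 ligase that places ubiquitin on lysine 119 of histone H2A. In ESCs it binds CpG islands together with PRC2, which methylates histone H3 at lysine 27, and holds developmental genes at a low level. Complexes with inactive RING1 proteins can still assemble, and the PRC1CPM and PRC1CKO lines were made to compare the loss of the enzyme's activity with the loss of the complex.

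CpG density marks the sites where Polycomb complexes gather, and the DNA upstream of the members differed widely in it. The stretches below are the 250 bases before the RefSeq start of transcription, from the GRCm38.p6 reference, 5′ to 3′ on the strand of the gene, with every CpG in capitals. *Ajap1* (chr4:153482831-153483080, minus strand) and *Dock10* (chr1:80758554-80758803, minus strand) are shown because they had the lowest untreated PRC1CPM levels relative to PRC1CKO cells of all members, a value that took part in the choice, and their stretches held 43 and 27 CpGs. *Nbl1* (chr4:139092971-139093220, minus strand) had the most CpGs after *Ajap1* within 500 bases of its start, and 36 in the stretch. *Cd84* (chr1:171839447-171839696, plus strand) and *Sel1l2* (chr2:140389711-140389960, minus strand) had the fewest within 500 bases of the start among the members with a matched promoter, 7 each, with 3 and 2 in the stretch.
Ajap1: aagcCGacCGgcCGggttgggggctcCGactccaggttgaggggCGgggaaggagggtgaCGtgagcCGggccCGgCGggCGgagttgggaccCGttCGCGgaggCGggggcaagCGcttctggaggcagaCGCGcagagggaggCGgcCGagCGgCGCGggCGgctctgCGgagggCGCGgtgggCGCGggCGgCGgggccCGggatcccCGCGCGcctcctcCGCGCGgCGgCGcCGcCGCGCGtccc
Dock10: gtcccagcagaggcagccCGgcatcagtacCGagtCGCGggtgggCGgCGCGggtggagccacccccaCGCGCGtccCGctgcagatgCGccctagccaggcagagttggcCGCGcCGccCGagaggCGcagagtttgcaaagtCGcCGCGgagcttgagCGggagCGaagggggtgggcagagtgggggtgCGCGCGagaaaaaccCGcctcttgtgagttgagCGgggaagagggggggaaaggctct
Nbl1: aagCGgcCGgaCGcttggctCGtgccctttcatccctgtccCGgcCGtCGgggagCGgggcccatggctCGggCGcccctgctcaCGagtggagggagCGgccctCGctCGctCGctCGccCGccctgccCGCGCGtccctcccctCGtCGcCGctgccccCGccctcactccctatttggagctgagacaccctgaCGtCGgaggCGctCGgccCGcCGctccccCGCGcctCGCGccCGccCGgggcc
Cd84: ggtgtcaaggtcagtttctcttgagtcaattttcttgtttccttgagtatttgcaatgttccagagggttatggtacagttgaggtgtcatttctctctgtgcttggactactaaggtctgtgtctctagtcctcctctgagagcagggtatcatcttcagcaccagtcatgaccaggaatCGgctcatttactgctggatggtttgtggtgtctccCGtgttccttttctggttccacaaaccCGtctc
Sel1l2: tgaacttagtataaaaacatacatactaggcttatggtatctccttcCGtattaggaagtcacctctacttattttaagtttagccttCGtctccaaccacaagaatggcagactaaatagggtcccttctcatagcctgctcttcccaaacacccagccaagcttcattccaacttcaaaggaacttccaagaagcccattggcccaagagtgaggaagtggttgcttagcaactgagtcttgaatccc

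Within 500 bases of the deposited start on either side, the members had a median of 46.5 CpGs, with quartiles of 29.3 and 61.8. *Tex15* had 1 and *Ajap1* had 136. The 611 genes of the same level limits that rose by at least 1.5 in PRC1CKO cells and at least 0.2 less in PRC1CPM cells had a median of 65. The 130 genes that rose by at least 1.5 in both lines with a difference under 0.2 had 51, and all 7017 genes within the level limits on placed chromosomes had 56. At least 50 CpGs were found at 34 of the 76 members (44.7%), at 50.8% of the genes with a near-equal rise, at 69.1% of those with the larger rise without PRC1, and at 60.1% of all genes within the limits. Fewer than 20 were found at 15 members (19.7%), against 8.46%, 8.35% and 9.49%. Among the 525 genes that rose by at least 1.5 in PRC1CPM cells, the members made up 15 of the 53 genes with fewer than 20 CpGs (28.3%), 27 of the 147 with 20 to 49 (18.4%) and 34 of the 325 with at least 50 (10.5%). The CpG count was not part of the choice, but it was looked at with the members known and is given as a description. The untreated levels of these sets differed within the shared limits, since the members had median untreated normalised read counts of 40.4 in PRC1CKO and 34.1 in PRC1CPM cells and the genes with the larger rise without PRC1 had 67.8 and 98.5.

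**Figure D1:**
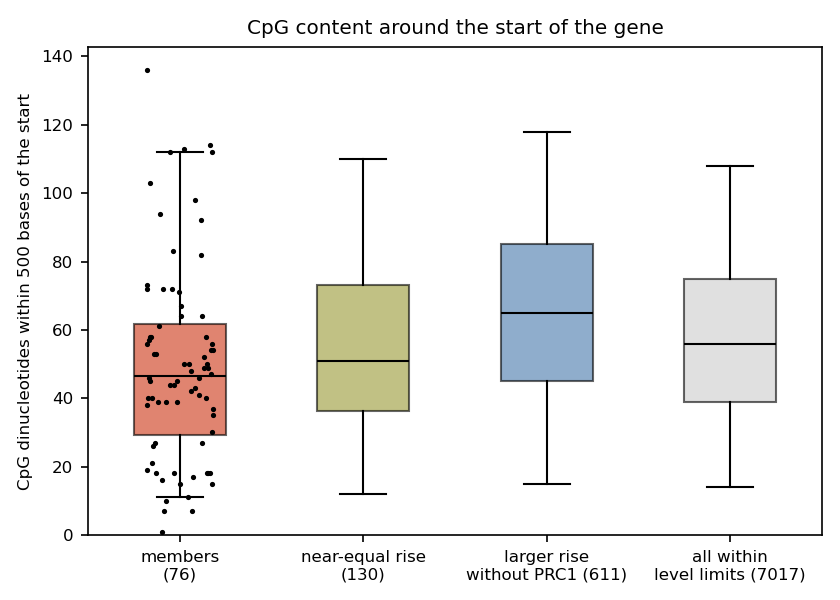
CpG dinucleotides within 500 bases of the start of each gene (y axis) for the 76 members, the 130 genes with a near-equal rise, the 611 genes with a larger rise without PRC1 and all 7017 genes within the level limits. Boxes show quartiles and median, whiskers the range from the 5th to the 95th percentile, and points each member; the members' median of 46.5 lies below the 51 of the genes with a near-equal rise, the 65 of the genes with the larger rise without PRC1 and the 56 of all genes.

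A RefSeq promoter within 200 bases of the deposited start was found for 49 of the 76 members. Short motifs were searched on both strands of the 250 upstream bases. TATAAA, the core of the TATA box, was found in 4 of the 49 (8.16%, in *Cyp26b1*, *Rbms3*, *Sct* and *Sel1l2*), against 12.4% of all 32851 RefSeq promoters and 5.85% of those within the level limits. CACGTG was also found in 4 (8.16%, in *Mgll*, *Oxtr*, *Slc13a3* and *Slc6a3*), against 6.02% of all promoters and 8.40% of those within the level limits. CCAAT was found in 15 (30.6%), against 33.9% and 35.5%. None of the 3 contains another. A match only says that the letters are there.

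The lines were first checked against their targeted genes and cell type. *Ring1*, which encodes RING1A, had a mean normalised read count of 227 in untreated and 254 in OHT-treated PRC1CKO cells, and 162 and 140 in PRC1CPM cells. *Rnf2*, which encodes RING1B, had 1526 and 1546 in PRC1CKO and 1696 and 1511 in PRC1CPM cells. *Ring1* reads were thus present in the PRC1CKO line, which is labelled Ring1a-/-, and its means there were above those in PRC1CPM cells. The deletion takes part of *Ring1* and the OHT-dependent change 1 exon of *Rnf2*, whereas reads were counted over the whole gene body and are not split by exon. These counts therefore check neither genotype, and where the *Ring1* reads lie was not tested. The ESC factors *Pou5f1*, *Nanog*, *Sox2* and *Zfp42* were expressed in all 12 libraries, with lowest normalised read counts of 2497, 4105, 3398 and 6785.

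After OHT treatment, the members rose by a median of 2.01 on the log2 scale in PRC1CPM cells, with a range from 1.51 to 4.64, and by a median of 1.49 in PRC1CKO cells, from 0.51 to 3.83. These medians are 4.04-fold and 2.81-fold on the scale of value + 1. The median of the difference between the lines was 0.51, from 0.20 to 1.33, with 40 members at 0.5 or more and 4 at 1 or more (*Lox*, *Cdx1*, *Ajap1* and *Tll2*). This median was 0.22 without untreated PRC1CKO replicate 1, 0.32 without untreated PRC1CPM replicate 3, and 0.95 without the gDNA-seq correction of the spike-in scale. That scale also moved all genes tested, whose median difference was -0.02 as deposited and 0.43 without the correction. Over all 16940 genes tested, the median change was 0.10 in PRC1CPM and 0.12 in PRC1CKO cells. Every member was higher in the OHT-treated library than in the untreated library of the same number, for all 3 numbers and in both lines.

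A fit with limma across the 12 libraries, in which a call needs a fold change over 1.5 with an adjusted p below 0.05, called 76 of 76 members higher in PRC1CPM cells, where it called 13.1% of all genes tested. In PRC1CKO cells it called 66 of 76, against 16.5% of all genes. The OHT effects chose the members, so nothing is read from these counts or from those of the interaction below. The 10 that were not called in PRC1CKO cells were *Lox*, *Ajap1*, *Erich2*, *Scube2*, *Btn1a1*, *Tmem25*, *Trim29*, *4933402E13Rik*, *Prr19* and *Nsun7*, and their changes there lay between 0.51 and 1.22. All 3 treated libraries lay above all 3 untreated ones for 74 members in PRC1CPM cells (18.7% of all genes tested), for 64 in PRC1CKO cells (22.1%) and for 63 in both (15.1%).

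No member was called for the interaction of line and treatment (adjusted p below 0.05), and limma called no gene of the 16940 with a larger change in PRC1CPM cells (0.0%). It called 4 genes with a smaller change (0.0236%), none of them a member (28 genes without untreated PRC1CKO replicate 1). At an unadjusted p under 0.05, 3 members (*Cdx1*, *Ajap1* and *Scube2*) and 128 of all genes had a larger change in PRC1CPM cells. edgeR and DESeq2 on the recovered reads called 0 of all genes, and so 0 members, with a larger change in PRC1CPM cells. They called 4 and 15 of all genes with a smaller change. With replicate number added to the fit as a block, 3 members (*Ajap1*, *Cdx1* and *Scube2*) and 78 of all genes were called with a larger change in PRC1CPM cells. With the block and the TMM scale, these were 2 and 91. No label says what a number shares. The median standard error of the interaction over the members was 0.54.

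**Figure D2:**
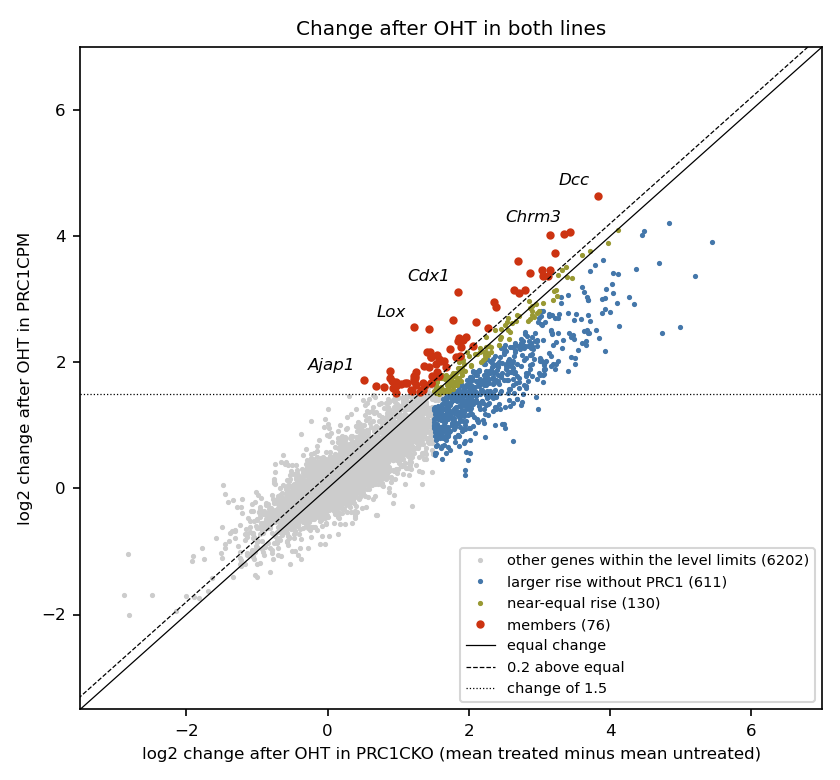
Log2 change after OHT in PRC1CKO (x axis) and PRC1CPM cells (y axis), each the mean of 3 treated minus the mean of 3 untreated libraries, for all 7019 genes within the level limits. The 76 members fill the corner above the dotted line at 1.5 and the dashed line at 0.2 above equal change, with *Dcc* highest at 4.64 in PRC1CPM and *Ajap1* lowest at 0.51 in PRC1CKO cells. The 611 genes in blue rose by at least 1.5 in PRC1CKO cells and by at least 0.2 less in PRC1CPM cells.

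The number of members depended on single libraries. It was 40 without untreated PRC1CKO replicate 1, 137 without untreated PRC1CKO replicate 3, 166 without untreated PRC1CPM replicate 1 and 158 without OHT-treated PRC1CPM replicate 2. At the edge of the margin, *Mgll* (0.2027), *Tle2* (0.2116) and *Pdzrn4* (0.2140) lay just inside, and *Frrs1l* (0.1999), *Smpdl3a* (0.1944) and *Fut4* (0.1898) just outside. At the edge of the change in PRC1CPM cells, *Nsun7* (1.508), *Ptgs1* (1.527) and *Rspo1* (1.539) lay just inside, and *Slc38a5* (1.484), *Lrfn2* (1.475) and *Pdyn* (1.472) just outside.

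The members with the largest gap between the lines were *Lox*, *Cdx1*, *Ajap1* and *Tll2*. *Lox* encodes lysyl oxidase, which cross-links collagen and elastin, and lies on chromosome 18 from 52516060 to 52529721. Its normalised read counts in replicates 1, 2 and 3 were 65.5, 18.5 and 44.0 in untreated and 121, 94.4 and 62.8 in OHT-treated PRC1CKO cells. They were 89.5, 7.54 and 8.13 in untreated and 183, 71.1 and 107 in OHT-treated PRC1CPM cells. The 2 low untreated PRC1CPM libraries rest on 8 and 6 reads, and the groups overlapped in both lines. The log2 change was 1.22 in PRC1CKO and 2.56 in PRC1CPM cells, and the difference was 0.15, 0.79 and 3.06 in replicates 1, 2 and 3.

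*Cdx1*, a caudal-type homeobox factor of the posterior embryo and gut (chromosome 18, 61018862 to 61036199), had 375, 109 and 143 in untreated and 843, 567 and 581 in OHT-treated PRC1CKO cells. The untreated PRC1CPM libraries had 130, 49.0 and 48.8, and the OHT-treated ones 863, 373 and 663. Treated levels thus overlapped between the lines, with means of 664 ± 156 and 633 ± 246 (SD, n = 3), whereas the untreated means were 209 ± 145 and 76.1 ± 47.1 (SD, n = 3). Its changes were 1.85 and 3.12.

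*Ajap1*, which encodes a membrane protein of adherens junctions (chromosome 4, 153373221 to 153482830), had 244, 182 and 122 in untreated and 279, 194 and 290 in OHT-treated PRC1CKO cells. It had 71.6, 40.5 and 43.4 in untreated and 181, 139 and 183 in OHT-treated PRC1CPM cells. All 3 PRC1CPM libraries lay below all 3 PRC1CKO libraries in both states, and the OHT-treated PRC1CPM cells, at 168 ± 24.9 (SD, n = 3), only came near the 183 ± 61.3 (SD, n = 3) of untreated PRC1CKO cells. Its change was 0.51 in PRC1CKO and 1.71 in PRC1CPM cells.

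*Dock10*, an exchange factor for small GTPases (chromosome 1, 80501068 to 80758553), was likewise lower in PRC1CPM cells in both states. It had 268, 254 and 191 in untreated and 588, 661 and 626 in OHT-treated PRC1CKO cells, against 105, 99.9 and 59.6 and then 485, 376 and 315 in PRC1CPM cells. All 3 PRC1CPM libraries lay below all 3 PRC1CKO libraries in each state, whereas the OHT-treated PRC1CPM cells, at 392 ± 85.7 (SD, n = 3), lay above the 238 ± 41.0 (SD, n = 3) of untreated PRC1CKO cells. The changes were 1.40 and 2.16. *Scube2*, a secreted protein that helps to release Hedgehog ligands, had 232, 215 and 176 in untreated PRC1CKO and 128, 92.4 and 99.0 in untreated PRC1CPM cells. After OHT treatment it had 392, 351 and 267 against 498, 214 and 325, so that only the untreated groups lay apart.

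**Figure D3:**
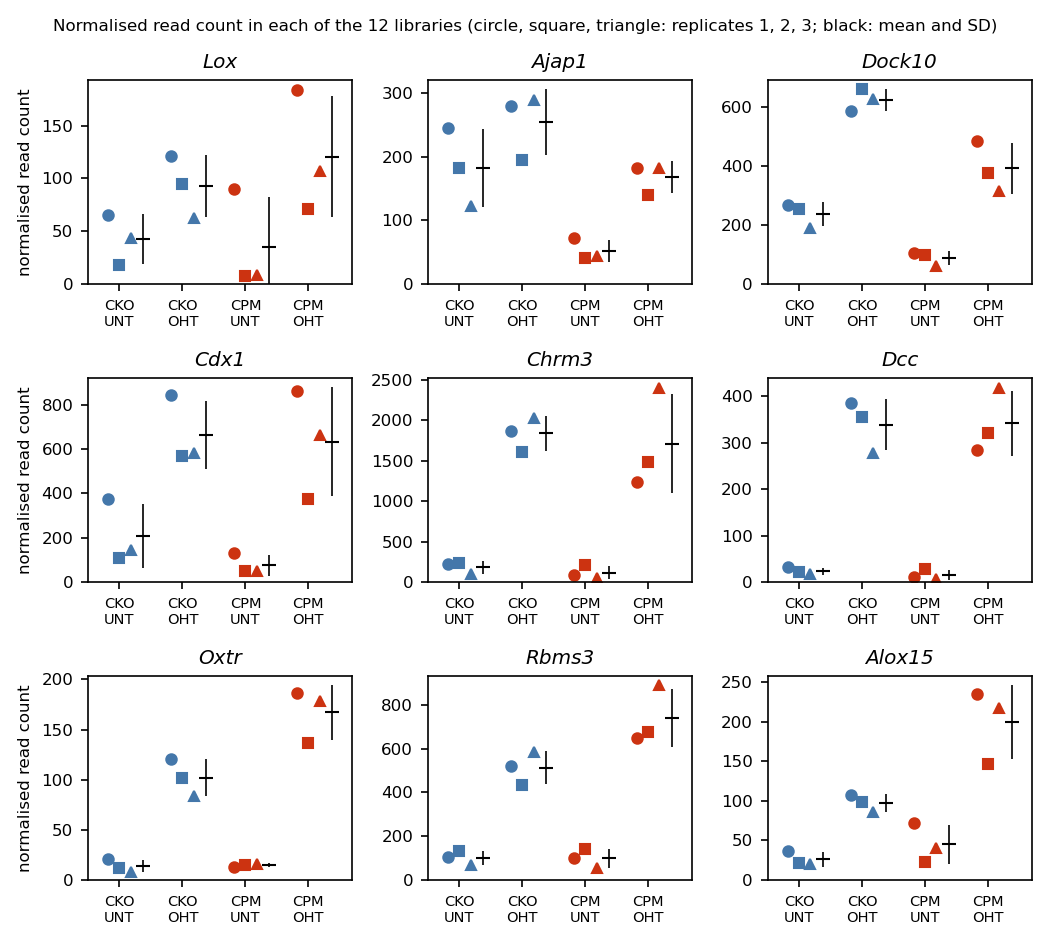
Normalised read counts (y axis, from 0) of 9 members in each of the 12 libraries, with PRC1CKO in blue and PRC1CPM in red, a symbol for each replicate and the mean and SD of 3 libraries in black. *Ajap1* and *Dock10* were lower in PRC1CPM cells in both states, *Chrm3* and *Dcc* reached similar treated levels in both lines, and *Oxtr*, *Rbms3* and *Alox15* were higher in OHT-treated PRC1CPM cells in all 3 libraries.

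The difference between the 2 changes can be split into the difference between the untreated lines and that between the OHT-treated lines. Untreated levels were lower in PRC1CPM than in PRC1CKO cells for 58 of 76 members, with a median log2 difference of -0.30, whereas the median over all genes tested was 0.12. Treated levels were higher in PRC1CPM cells for 52 members, with a median of 0.20 against 0.10 over all genes. Both held for 34 members, the lower untreated level alone for 24 and the higher treated level alone for 18. The untreated share of the difference was the larger for 43 members. The rule requires a positive sum of these parts, so their signs are in part fixed by the choice. The genes with the larger rise without PRC1 had medians of 0.58 and -0.07, which the mirrored choice fixes in the same way, and those with a near-equal rise had 0.09 and 0.08.

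Between the untreated lines, limma called 3 members lower in PRC1CPM cells (*Ajap1*, *Cdx1* and *Dock10*), where it called 0.478% of all genes, and 0 members higher, where it called 2.21%. The difference that chose the members contains the untreated difference with its sign turned, so a lower untreated PRC1CPM level was favoured by the choice, and these counts and those between the OHT-treated lines are a description, not a test. At an unadjusted p under 0.05, 11 members were lower and 1 was higher, against 374 and 2017 of the 16940 genes. The count of lower members was 6 without untreated PRC1CPM replicate 1 (95 of all genes), 5 without untreated PRC1CPM replicate 2 (90 of all genes), and 6 on the TMM scale (305 of all genes), against 81 of all genes in the fit with every library on the deposited scale. With replicate number added to the fit as a block it was 14 (253 of all genes). In the other direction, 374 of all genes were higher, 1491 without untreated PRC1CKO replicate 1 and 170 without untreated PRC1CKO replicate 3. All 3 untreated PRC1CPM libraries lay below all 3 PRC1CKO libraries for 5 members (*Ajap1*, *Tll2*, *Scube2*, *Dock10* and *Btn2a2*), as for 2.55% of all genes.

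Between the OHT-treated lines, limma called 0 members higher in PRC1CPM cells, where it called 1.25% of all genes, and 0 lower, where it called 0.218%. At an unadjusted p under 0.05, 5 members were higher and 1 was lower, against 1499 and 363 of the 16940 genes. edgeR called 0 members and 268 of all genes higher, and DESeq2 called 1 member, *4933402E13Rik*, and 345 of all genes, against 212 of all genes with limma. With the replicate block, limma called 6 members and 1131 of all genes higher. All 3 treated PRC1CPM libraries lay above all 3 PRC1CKO libraries for 10 members, as for 11.9% of all genes, and below them for 2 (*Ajap1* and *Dock10*), as for 4.35%. The 10 were *Trim29*, *4933402E13Rik*, *Zswim2*, *Slc13a3*, *Rbms3*, *Oxtr*, *Scn1a*, *Alox15*, *Drd4* and *Pdzrn4*.

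*Alox15*, a lipoxygenase of polyunsaturated fatty acids (chromosome 11, 70344147 to 70352031), had 108, 98.1 and 85.5 in OHT-treated PRC1CKO and 236, 147 and 217 in OHT-treated PRC1CPM cells. Its untreated values were 37.2, 21.5 and 20.3 in PRC1CKO and 71.6, 22.6 and 40.7 in PRC1CPM cells. The gene was thus higher in PRC1CPM cells in both states, by 0.65 and 1.01 on the log2 scale, with overlap only in the untreated groups. Over the 1380 genes tested on chromosome 11, the median difference went the same way, by 0.45 and 0.42. *Rbms3*, an RNA-binding protein (chromosome 9, 116572747 to 117629913), started from 102 ± 31.9 and 100 ± 43.4 (SD, n = 3) in PRC1CKO and PRC1CPM cells and rose to 513 ± 74.6 and 738 ± 133 (SD, n = 3).

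**Figure D4:**
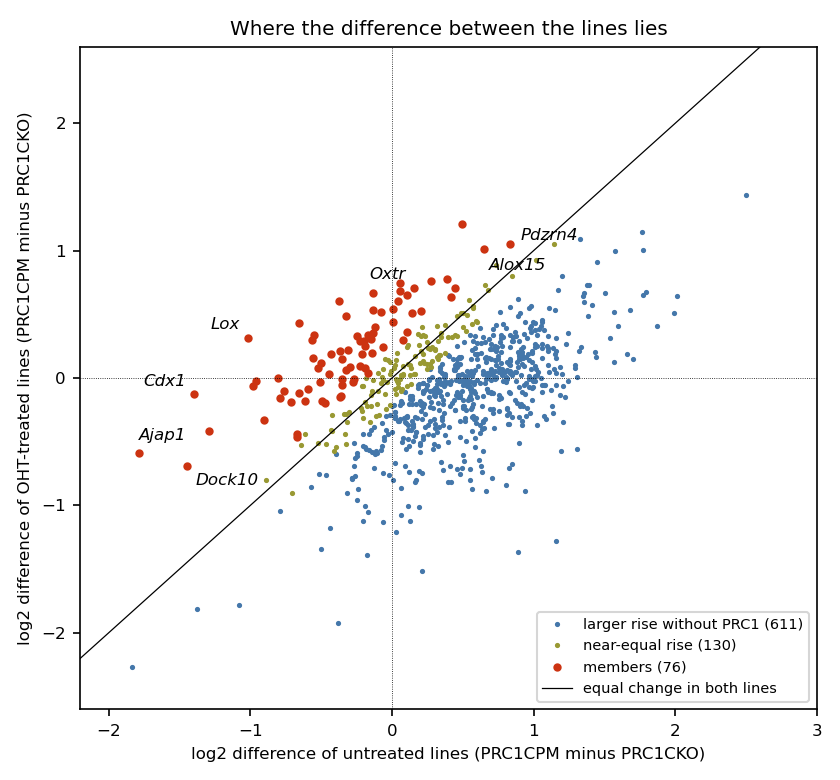
Log2 difference between the lines (PRC1CPM minus PRC1CKO) in untreated (x axis) and OHT-treated cells (y axis) for the members, the genes with a near-equal rise and those with a larger rise without PRC1. Distance from the diagonal is the difference in change, which the choice of the sets fixed; *Ajap1*, *Dock10* and *Cdx1* lie far left, and *Alox15* and *Pdzrn4* lie at the upper right of the members.

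By what they encode, the members were sorted, after they were known, into 6 groups of 49 genes and 27 others. Receptors and channels held 10 members and had the highest median change in PRC1CPM cells, 2.86, against 2.38 in PRC1CKO cells. *Dcc*, the receptor for the axon guidance cue netrin (chromosome 18, 71253632 to 72351069), had 31.3, 20.8 and 17.8 in untreated and 385, 355 and 277 in OHT-treated PRC1CKO cells. In PRC1CPM cells it had 10.2, 27.3 and 6.78, and then 284, 322 and 418. The treated groups overlapped, with a log2 difference of 0.00, and the changes of 3.83 and 4.64 differed by the gap between the untreated means, which rest on 8, 29 and 5 reads in PRC1CPM cells.

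*Chrm3*, a muscarinic acetylcholine receptor (chromosome 13, 9876613 to 10360803), had 220, 234 and 93.0 in untreated and 1868, 1606 and 2032 in OHT-treated PRC1CKO cells. It had 83.1, 208 and 52.9, and then 1239, 1480 and 2401, in PRC1CPM cells. Its changes were 3.43 and 4.06, and the lines overlapped in both states. *Oxtr*, the oxytocin receptor, started from 13.9 ± 6.34 and 14.7 ± 1.77 (SD, n = 3) in PRC1CKO and PRC1CPM cells and rose to 102 ± 18.2 and 167 ± 27.0 (SD, n = 3), with all 3 treated PRC1CPM libraries the higher. Over the 852 genes tested on its chromosome 6, PRC1CPM cells were higher by a median log2 difference of 0.31 untreated and 0.30 after OHT treatment. *Gria1*, a subunit of AMPA-type glutamate receptors, rose by 2.71 and 3.09, and the others of this group were *Drd4*, *Hcrtr1*, *Lgr5*, *Gfra3*, *Il1rapl2* and *Scn1a*. From lists of gene families, 1 of the 23 glutamate and GABA receptor genes within the level limits and 1 of the 25 calcium and sodium channel genes were members, against 76 of all 7019 genes. Of the 39 receptor genes tested, 19 were called higher in each line, and of the 40 channel genes 17 were. In PRC1CKO and PRC1CPM cells, 3 and 1 channel genes were called lower. Among all 16940 genes, 16.5% and 13.1% were called higher and 524 and 237 genes lower.

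Secreted ligands and modulators of signalling held 9 members, with median changes of 1.77 in PRC1CPM and 1.36 in PRC1CKO cells. *Edn3*, an endothelin that acts on neural crest cells, had 10.2, 26.4 and 8.13 in untreated and 112, 74.2 and 83.2 in OHT-treated PRC1CPM cells, against 26.8, 18.5 and 15.2 and then 79.5, 55.5 and 76.8 in PRC1CKO cells. The lines overlapped in both states. *Sct*, the gut hormone secretin, rose by 2.12 and 1.54 in PRC1CPM and PRC1CKO cells. *Rspo1*, which strengthens Wnt signalling through LGR receptors such as the product of the member *Lgr5*, rose by 1.54 and 1.20. *Kremen2*, a membrane protein that takes part in Wnt inhibition by Dickkopf proteins, rose by 1.67 and 1.13. *Chrdl2* and *Nbl1*, both antagonists of bone morphogenetic proteins, *Nov*, a matricellular protein, *Lgi3* and *Scube2*, whose PRC1CKO change of 0.69 was the lowest of the group, completed it.

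Transcription regulators held 6 members, with median changes of 1.89 in PRC1CPM and 1.61 in PRC1CKO cells, among them *Cdx1*, *Foxf1*, *En2*, *Zfp560* and the corepressor *Tle2*. *Foxf1*, a forkhead factor of lateral and visceral mesoderm (chromosome 8, 121084386 to 121088154), had 17.9, 7.70 and 8.46 in untreated and 134, 88.9 and 87.2 in OHT-treated PRC1CKO cells. In PRC1CPM cells it had 35.8 and 1.88 in replicates 1 and 2 and 0 in replicate 3, where 0 reads allow up to 3, a normalised read count of 4.07, and after OHT treatment 103, 54.9 and 76.7. The untreated PRC1CPM values thus spanned more than those of PRC1CKO cells, and its change of 4.02 depends on the 1 added before the logarithm. *En2*, a homeobox factor of the midbrain and hindbrain, had 209, 81.6 and 99.8, and then 379, 404 and 369, in PRC1CKO cells, against 189, 94.2 and 119, and then 651, 336 and 551, in PRC1CPM cells. Its untreated groups overlapped and its treated groups did too. From lists of lineage markers, *Foxf1* was the 1 member among the 10 mesoderm markers within the level limits and *En2* the 1 among the 10 neural markers. No member was found among the listed 10 trophoblast, 7 primitive endoderm, 6 neural crest and 19 germline genes within the limits. The germline list does not hold the member *Tex15*, a gene of male meiosis. At the overall share of 76 of 7019, nothing is read from these counts.

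For lineage markers, the shares of all genes called higher were again 16.5% in PRC1CKO and 13.1% in PRC1CPM cells, and 524 and 237 of the 16940 genes were called lower. Of 22 mesoderm markers tested, 16 were called higher in each line, with median changes of 2.07 in PRC1CKO and 1.73 in PRC1CPM cells. Of 33 neural markers, 19 and 16 were called higher and 4 and 2 lower in PRC1CKO and PRC1CPM cells, and of 25 germline genes 16 and 15. The counts were 11 and 6 of 18 trophoblast markers, 10 and 12 of 18 primitive endoderm markers and 9 and 6 of 12 neural crest markers, with 1 trophoblast and 1 primitive endoderm marker called lower in PRC1CKO cells. The summed normalised read count of the mesoderm list lay between 369 and 894 in untreated and between 1775 and 2353 in OHT-treated PRC1CKO libraries, and between 559 and 990 and then 1450 and 2613 in PRC1CPM libraries, with *Kdr* the most abundant gene. Of its 24 genes, 6 were at 0 in at least 1 library and none in all. The list of feeder and fibroblast markers, led by *Col1a1*, summed to between 3864 and 10636 in PRC1CKO and between 6503 and 21368 in PRC1CPM libraries, with the highest sums in replicate 1 of both PRC1CPM groups. Of its 12 genes, 5 were at 0 in at least 1 library. The part of cell mixture in the members' levels was not tested, and a larger number of cells of a type cannot be told apart from more RNA per cell in these bulk samples.

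Matrix and adhesion genes held 8 members, with median changes of 2.21 in PRC1CPM and 1.33 in PRC1CKO cells. All 8 had a lower mean log2 value in untreated PRC1CPM cells, as had 58 of all 76 members. The choice favoured this sign. *Tll2*, a tolloid-like metalloprotease (chromosome 19, 41083981 to 41206774), had 31.3, 23.1 and 30.4 in untreated PRC1CKO and 23.0, 17.0 and 13.6 in untreated PRC1CPM cells. After OHT treatment it had 105, 74.0 and 60.2 against 163, 77.3 and 92.0, so that the untreated groups lay apart narrowly and the treated groups overlapped. *Matn4*, a matrilin, had 50.6, 44.6 and 24.5, and then 375, 341 and 256, in PRC1CKO cells, and 52.4, 20.7 and 13.6, and then 402, 251 and 225, in PRC1CPM cells, with overlap between the lines in both states. *Itga8*, an integrin subunit, rose by 1.57 in PRC1CPM and 1.18 in PRC1CKO cells and was the 1 member among the 15 integrin genes within the level limits. *Cadm3*, *Esam* and *Lsamp*, cell adhesion molecules of the immunoglobulin family, completed the group.

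Transporters held 6 members, with changes in PRC1CPM cells from 1.57 to 3.36. *Slc7a10*, which carries small neutral amino acids, had 26.8, 26.2 and 18.6 in untreated and 253, 205 and 185 in OHT-treated PRC1CKO cells, and 28.1, 20.7 and 12.2, and then 303, 169 and 175, in PRC1CPM cells. *Slc13a3*, a dicarboxylate carrier, had 107, 68.5 and 71.5 in OHT-treated PRC1CKO and 125, 133 and 133 in OHT-treated PRC1CPM cells, with the lines apart only after treatment. *Slc6a3*, the dopamine transporter, *Slc6a12*, *Slc34a2* and the ABC transporter *Abcg4* were the others. The 5 solute carriers stand among 168 within the level limits, against 76 members among all 7019 genes. Of 321 tested, 78 were called higher and 14 lower in PRC1CKO cells, and 49 higher and 11 lower in PRC1CPM cells. Among all 16940 genes, 16.5% and 13.1% were called higher and 524 and 237 genes lower.

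Enzymes held 10 members, with median changes of 1.92 in PRC1CPM and 1.53 in PRC1CKO cells. A higher mean log2 value in OHT-treated PRC1CPM cells was found for 9 of them and for 52 of all 76 members. The choice favoured this sign too. *Alppl2*, an alkaline phosphatase, had 38.7, 23.1 and 28.8, and then 277, 250 and 325, in PRC1CKO cells, and 19.2, 28.3 and 24.4, and then 333, 176 and 600, in PRC1CPM cells. *Inpp4b*, a phosphoinositide phosphatase, had 362, 400 and 491 in OHT-treated PRC1CKO and 383, 547 and 1015 in OHT-treated PRC1CPM cells. For both genes OHT-treated PRC1CPM replicate 3 was far above the other libraries. *Mgll*, which breaks down monoacylglycerols, lay at the edge of the margin with changes of 2.25 and 2.05. *Cyp26b1*, which clears retinoic acid, rose by 1.79 and 1.48, and *Ptgs1*, *Ido2*, *Ndst3*, *Echdc3* and *Nsun7* completed the group with *Alox15*.

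Among the other 27 members, *Zswim2* had 14.9, 15.4 and 5.07 in untreated and 80.5, 149 and 136 in OHT-treated PRC1CKO cells, and 5.11, 23.6 and 10.8, and then 150, 169 and 307, in PRC1CPM cells. Its untreated values rest on 10, 20 and 6 reads in PRC1CKO and 4, 25 and 8 in PRC1CPM cells. *Sel1l2* had 17.9, 13.2 and 2.71, and then 71.4, 103 and 241, in PRC1CPM cells, so that replicate 3 was the lowest before and the highest after treatment. Its PRC1CKO values were 20.9, 16.9 and 18.6, and then 132, 118 and 130, and the difference between the lines was -0.67, 0.13 and 3.29 in replicates 1, 2 and 3. The 3.29 depends on an untreated PRC1CPM library with 2 reads on *Sel1l2*. *Csmd1* rose by 3.46 and 3.15 in PRC1CPM and PRC1CKO cells. *Tex15*, a gene of male meiosis, had 888, 527 and 717, and then 2083, 2068 and 2046, in PRC1CKO cells, and 637, 468 and 533, and then 2156, 1440 and 2126, in PRC1CPM cells. Here the lines overlapped in both states and the changes were 1.57 and 1.79.

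Of other lists, few genes lay within the level limits, and none of those was a member: 12 PRC1 subunits, 2 PRC2 subunits, 2 ESC pluripotency factors, 5 p53 target genes, 7 oestrogen receptor and target genes and 9 sterol synthesis genes. At the overall share of 76 of 7019, nothing is read from this. Of all genes tested, 16.5% were called higher in PRC1CKO and 13.1% in PRC1CPM cells. Called lower were 524 and 237 of the 16940 genes, and 1133 and 595 on the TMM scale. Of 26 PRC1 subunits tested, 8 were called higher in each line and 2 and 1 lower in PRC1CKO and PRC1CPM cells, and of 12 PRC2 subunits 2 were called higher in each line. Of 16 ESC pluripotency factors, 6 were called lower in PRC1CKO and 3 in PRC1CPM cells, and 1 was called higher in PRC1CPM cells. Of 20 p53 target genes, 4 and 5 were called higher in PRC1CKO and PRC1CPM cells, and of 14 oestrogen receptor and target genes 6 and 4, with 1 lower in PRC1CKO cells. Of 24 sterol synthesis genes, 4 and 2 were called lower and 1 higher in each line.

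Of the 553 genes within the level limits on chromosome 2, 12 were members (2.17%), as were 5 of 153 on chromosome 18 (3.27%) and 0 of 236 on chromosome 12, against 76 of 7019 overall. The median log2 difference of PRC1CPM from PRC1CKO cells over the genes tested was 0.45 untreated and 0.42 OHT-treated on chromosome 11. It was 0.31 and 0.30 on chromosome 6, -0.10 and -0.16 on chromosome 1, and 0.12 and 0.10 over all genes. For 5 genes on chromosome Y it was 2.93 and 3.11. The cause was not tested. The butyrophilin genes *Btn1a1* and *Btn2a2* lie 11.2 kb apart on chromosome 13, and *Sct* and *Drd4* lie 12.9 kb apart on chromosome 7. Gene bodies of the members had a median length of 25.8 kb, against 63.2 kb for the genes with a near-equal rise, 81.4 kb for those with the larger rise without PRC1 and 17.8 kb for all genes within the level limits. The remaining members were *Erich2*, *Tmem25*, *Trim29*, *Dock10*, *4933402E13Rik*, *Prr19*, *Mmd2*, *Rbms3*, *Gypc*, *Tcaf2*, *March1*, *Fcgbp*, *Zcchc16*, *Ly6h*, *Cav2*, *Vstm4*, *Cd84*, *Pgm5*, *Dram1*, *Rem1* and *Pdzrn4*, with changes in PRC1CPM cells between 1.59 and 3.15.

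The median relative SD over the members was 38.8% in untreated PRC1CKO and 40.8% in untreated PRC1CPM cells, against 26.8% and 20.9% for all genes within the level limits. After OHT treatment it was 17.6% and 30.7%, against 12.03% and 24.4%. The median normalised read count over the members was 54.4, 31.2 and 27.9 in untreated and 123, 110 and 107 in OHT-treated PRC1CKO libraries. In PRC1CPM libraries it was 47.3, 31.1 and 24.4, and then 178, 112 and 147. Replicate 1 was the highest library in every condition, as it also was for the median of all genes tested. Relative to that median on the log2 scale, replicate 1 stayed the highest in both untreated groups only. Replicate 2 was highest in OHT-treated PRC1CKO cells (-2.16 against -2.21 in replicate 1). In OHT-treated PRC1CPM cells it was replicate 3 (-1.95 against -1.97 in replicate 1). Fewer than 10 reads in at least 1 library were found for 16 members.

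Taken by replicate number, the median difference between the lines over the members was 0.80, 0.14 and 0.50 in replicates 1, 2 and 3. Over all genes tested it was 0.29, -0.27 and -0.08, so that the members lay above all genes by 0.51, 0.41 and 0.58. The difference was above 0 in all 3 numbers for 39 members and in 2 of 3 for the other 37. All of these libraries had taken part in the choice.

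For a value outside the choice, the rule was applied to the 8 libraries of 2 replicate numbers, and the genes it picked were measured in the 4 libraries of the number left out. It picked 51, 158 and 98 genes when number 1, 2 or 3 was left out, of which 36, 68 and 52 are members. In the libraries that picked them, their median difference was 0.39, 0.52 and 0.41. In the libraries left out it was 0.41, -0.27 and 0.09, against 0.29, -0.27 and -0.08 over all genes tested in the same libraries. Relative to all genes, the median was therefore 0.13, 0.0023 and 0.16, and 30 of 51, 79 of 158 and 59 of 98 genes lay above the median of all genes. The median changes in the libraries left out were 1.80, 1.46 and 1.95 in PRC1CPM and 1.14, 1.73 and 2.00 in PRC1CKO cells, and 32 of 51, 75 of 158 and 70 of 98 genes reached 1.5 there in PRC1CPM cells.

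The rule picked 20 genes in all 3 of these applications. All 20 are members by arithmetic, since each mean over all libraries is the average of the means in these applications. Every library took part in picking them, so the list is a description and no value outside the choice. The 20 were *Ajap1*, *Alox15*, *Cadm3*, *Cdx1*, *Chrm3*, *Csmd1*, *Dock10*, *Esam*, *Fcgbp*, *Gypc*, *Hcrtr1*, *Il1rapl2*, *Lgi3*, *March1*, *Matn4*, *Mmd2*, *Rbms3*, *Sct*, *Slc6a3* and *Tll2*. Of the 4 members with the largest difference, *Cdx1*, *Ajap1* and *Tll2* were among them and *Lox* was not.

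**Figure D5:**
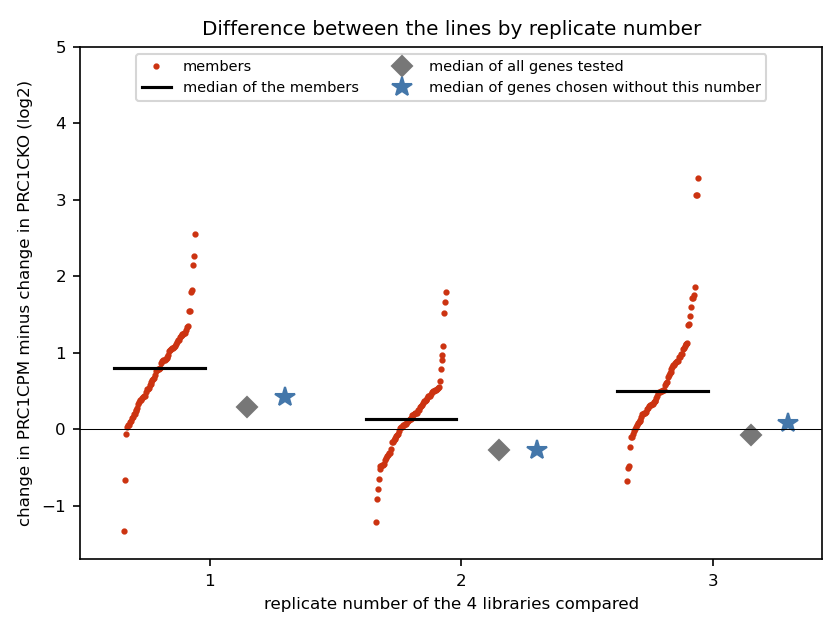
Change in PRC1CPM minus change in PRC1CKO cells (y axis, log2) for the 76 members in the 4 libraries of each replicate number (x axis), with black bars at their medians of 0.80, 0.14 and 0.50. Grey diamonds give the median of all 16940 genes tested and blue stars the median of the genes that the rule picked without that number, which was 0.41, -0.27 and 0.09.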

How the data were processed

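Per the labels and the study's methods, reads of the 12 cRNA-seq libraries were cleared of rDNA reads with Bowtie 2 and aligned to mm10 with dm6 by STAR and then Bowtie 2. Uniquely aligned reads without PCR duplicates were counted over gene bodies. Whether counting used strand is not given in the sources used here. The values the authors deposited are a normalised signal: each gene's reads were divided by a size factor set by the *Drosophila* spike-in and corrected by gDNA-seq of the same cells. They also deposited log2 fold changes and adjusted p-values of their own comparisons, and a list of genes chosen from them. Neither the deposited log2 values and p-values nor the list were used.

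In each library 100.0% of the values were whole reads (tolerance 0.02 read), and from 14668159 to 27016156 reads lay on genes. With 3 samples per condition, called biological replicates by the study, the spread is that between these samples. The 16940 transcripts that reached 10 reads in 3 or more libraries were fitted as log2(normalised read count + 1) with limma 3.58.1 in R 4.3.3, with 1 mean per condition, empirical Bayes shrinkage along the mean-variance trend, and Benjamini-Hochberg adjusted p-values. A fold change on this scale understates that of low genes. The fit was tested on simulated data drawn without an effect of replicate number, so that test does not cover such an effect. edgeR 4.0.16 and DESeq2 1.42.0 were run on the recovered reads as alternatives. The others were TMM and median-of-ratios scales, no gDNA-seq correction, another pseudocount, no filter, an adjusted p under 0.01, no trend, a replicate block, other forms of the rule, and each library left out. The design had assumed no counts, and the count tests stayed alternatives.

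The members, gene lists and roles were chosen with earlier results of these data known. Genes were named as the 10 with the largest difference, the 10 with the largest PRC1CPM change, the 5 with the highest untreated values, members of the lists, those next to a threshold and those called between the lines. Further members were named, after their values were seen, as examples of a role or of libraries that lay apart, and 1 member is not reported by name here. CpGs and motifs were read from RefSeq GRCm38.p6 with pysam 0.24.0, with 1 added to deposited starts. The 12 gDNA-seq input samples were not analysed here, and the scale without their correction used the library totals the study gives.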

Additional observations from a re-analysis of the deposited data

How the results depend on the processing

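Without the gDNA-seq correction the rule picked 367 genes, 75 of them members, the median difference of the members was 0.95 and that of all genes tested 0.43, 1 member (441 of all genes) was higher between the OHT-treated lines, 5 (148 of all genes) were lower between the untreated lines, and 2 of all genes had an interaction above 0. TMM and median-of-ratios scales gave 70 and 69 genes, 68 shared with the members in each case, and 6 members lower between the untreated lines in each, against 305 and 304 of all genes. A margin of 0.5 left 40 genes. DESeq2 called 1 member (345 of all genes) higher between the OHT-treated lines. The median change of all genes was 0.12 in PRC1CKO and 0.10 in PRC1CPM cells as deposited, and -0.0019 and -0.0072 with TMM. After OHT treatment, 2787 of all genes were called higher in PRC1CKO and 2226 in PRC1CPM cells as reported. Without the gDNA-seq correction this order turned, to 2132 and 3428.

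Leaving out 1 library gave 40 to 166 genes under the rule, a median difference of 0.22 to 0.74 over the members, 72 to 76 members higher in PRC1CPM and 50 to 72 in PRC1CKO cells, 2 to 6 lower in untreated PRC1CPM cells, and 0 to 1 genes of all with an interaction above 0. With 1 library left out, 1435 to 2547 of all genes were called higher after OHT treatment in PRC1CPM and 2017 to 3729 in PRC1CKO cells. Leaving out a replicate number gave 51 to 158 genes under the rule. Measured in the number left out of the choice, the median difference ran from -0.27, below 0, to 0.09 and 0.41. The cause was not tested.

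Across conditions, libraries that share a replicate number had deviations correlated over 0.1 in 17 of 18 pairs (mean 0.20, lowest 0.099), and each of the 12 correlated best with its own number, but no label says what a number shares. With the replicate block, 3 members (*Ajap1*, *Cdx1* and *Scube2*) and 78 of all genes had an interaction above 0, 6 members (1131 of all 16940 genes) were higher between the OHT-treated lines and 14 (253 of all genes) lower between the untreated lines. With the block and the TMM scale, added after seeing the data, these were 2, 3 and 12 members, against 91, 786 and 386 of all genes. Other alternatives kept each count of members within 1.5 times. Over all alternatives without the block, the count of all genes ran from 82 to 524 higher between the OHT-treated lines (212 as reported) and from 32 to 305 lower between the untreated lines (81 as reported). Genes higher between the untreated lines ran from 130 to 1491 (374 as reported), and were 1631 with the block. Those with an interaction below 0 ran from 0 to 28 (4 as reported), and were 246 with the block. Depth limits the 16 members with fewer than 10 reads in a library, and intervals on these counts would cover counting error only.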
